A study of Homo sapiens with 8 samples.

Results

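The replication-dependent histone genes are the clustered genes for the linker histone H1 and the core histones H2A, H2B, H3 and H4. Members were the genes whose probe set carried a single platform symbol, either H1-1 to H1-5 or a symbol starting H2AC, H2BC, H3C or H4C followed by a number. There were 56 such genes among the 18417 genes with a probe set of 1 symbol. They comprised 5 H1, 14 H2A, 16 H2B, 8 H3 and 13 H4 genes, each with 1 probe set. The symbols of 3 members, H2AC25, H2BC26 and H4C16, replaced older names outside the largest clusters, and they were kept because the naming pattern covers them. A further 12 genes of these families, among them H3C13, H4C11 and H2AC18, were read only by probe sets that list several genes, and these are described apart.

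DNA in the nucleus is wound around octamers of H2A, H2B, H3 and H4, and H1 binds the linker DNA between them. Each S phase needs a new set of these proteins, and the clustered genes supply it in a burst that ends with DNA synthesis. Their mRNAs are unusual in ending in a stem-loop, bound by SLBP, in place of a poly(A) tail, and their transcription at histone locus bodies is switched on by NPAT after phosphorylation by cyclin E-CDK2. In estrogen receptor-positive breast cancer cells estradiol is a mitogen that drives entry into S phase.

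The arrays came from T47D, a long-established line of luminal breast cancer cells that carry the estrogen receptor. All cells were kept in steroid-deprived medium and transfected with 200 nM siRNA, either a scrambled control or a mix of 3 siRNAs against 17β-HSD1. This enzyme, encoded by HSD17B1, reduces estrone to estradiol. After 48 h the medium was replaced by one with 1 nM estradiol (E2) or ethanol vehicle, and RNA was taken 2 days later. The 4 groups, called control-vehicle, control-E2, knockdown-vehicle and knockdown-E2 below, had 2 arrays each from 2 independent culture experiments. The model is thus 1 cell line under transient siRNA, without a rescue or a second line. RNA was taken from whole cultures, so a change in the share of cells holding histone mRNA and a change in histone mRNA per cell cannot be told apart.

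HSD17B1 read 9.35 and 8.66 on the control-vehicle arrays, 9.12 and 8.56 with control-E2, 8.41 and 8.36 with knockdown-vehicle, and 8.32 and 8.37 with knockdown-E2, as log2 signal. Every array labelled as knockdown was below every control array, by 0.56 ± 0.16 on average (log2, SE), but this did not pass the test (limma adjusted p = 0.221). All 10 luminal breast markers, among them ESR1 and GATA3, had a median signal above that of the median gene (7.66). This held for 1 of 4 measured basal, 1 of 5 fibroblast, 0 of 5 immune and 0 of 4 endothelial markers. The first knockdown-vehicle array had the lowest mean correlation with the other 7 (0.973, against 0.981 to 0.988). Counts of called histone genes over all classes are therefore also given without it. Those for shared probe sets, other gene lists and the replicate block are not.

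E2 raised histone mRNAs of all 5 classes. Averaged over both siRNAs, 20 of the 56 genes were higher with E2 at a Benjamini-Hochberg adjusted p below 0.05 from limma (called from here on), and 0 were lower. Among all genes, 1.4% were called higher and 0.244% lower. The change was positive for 53 of the 56 genes and had a median of 0.41 on the log2 scale, against -0.02 over all genes. In 26 of the 56 genes all 4 E2 arrays lay above all 4 vehicle arrays, a separation found in 2.99% of all genes. The highest fold was 2.04, for H2BC14. With the replicate number, assumed to mark the culture experiment, as a block in the fit, 23 genes were called (1.94% of all genes).

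Each class held both called and uncalled genes. Called genes were 3 of 5 for H1, 6 of 14 for H2A, 4 of 16 for H2B, 5 of 8 for H3 and 2 of 13 for H4. Median log2 changes were 0.67 for H1, 0.48 for H2A, 0.24 for H2B, 0.64 for H3 and 0.34 for H4. Classes were not tested against each other, since genes of a class share arrays and, in part, sequence. Without the first knockdown-vehicle array 17 genes were called. The count was 13 without the first control-vehicle array, and 12 without either knockdown-E2 array. Class counts rested on single arrays as well. H2A fell from 6 called to 3 without the first control-vehicle or the first knockdown-E2 array and to 2 without the second knockdown-E2 array, which also took H2B from 4 to 2. H3 fell from 5 to 3 without the first knockdown-vehicle or the first knockdown-E2 array, and H4 from 2 to 1 without the first control-vehicle or either knockdown-E2 array. With the 10 H2A genes that are on no shared probe set, 3 were called. The H2B median was 0.11 without the second control-E2 array.

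**Figure D1:**
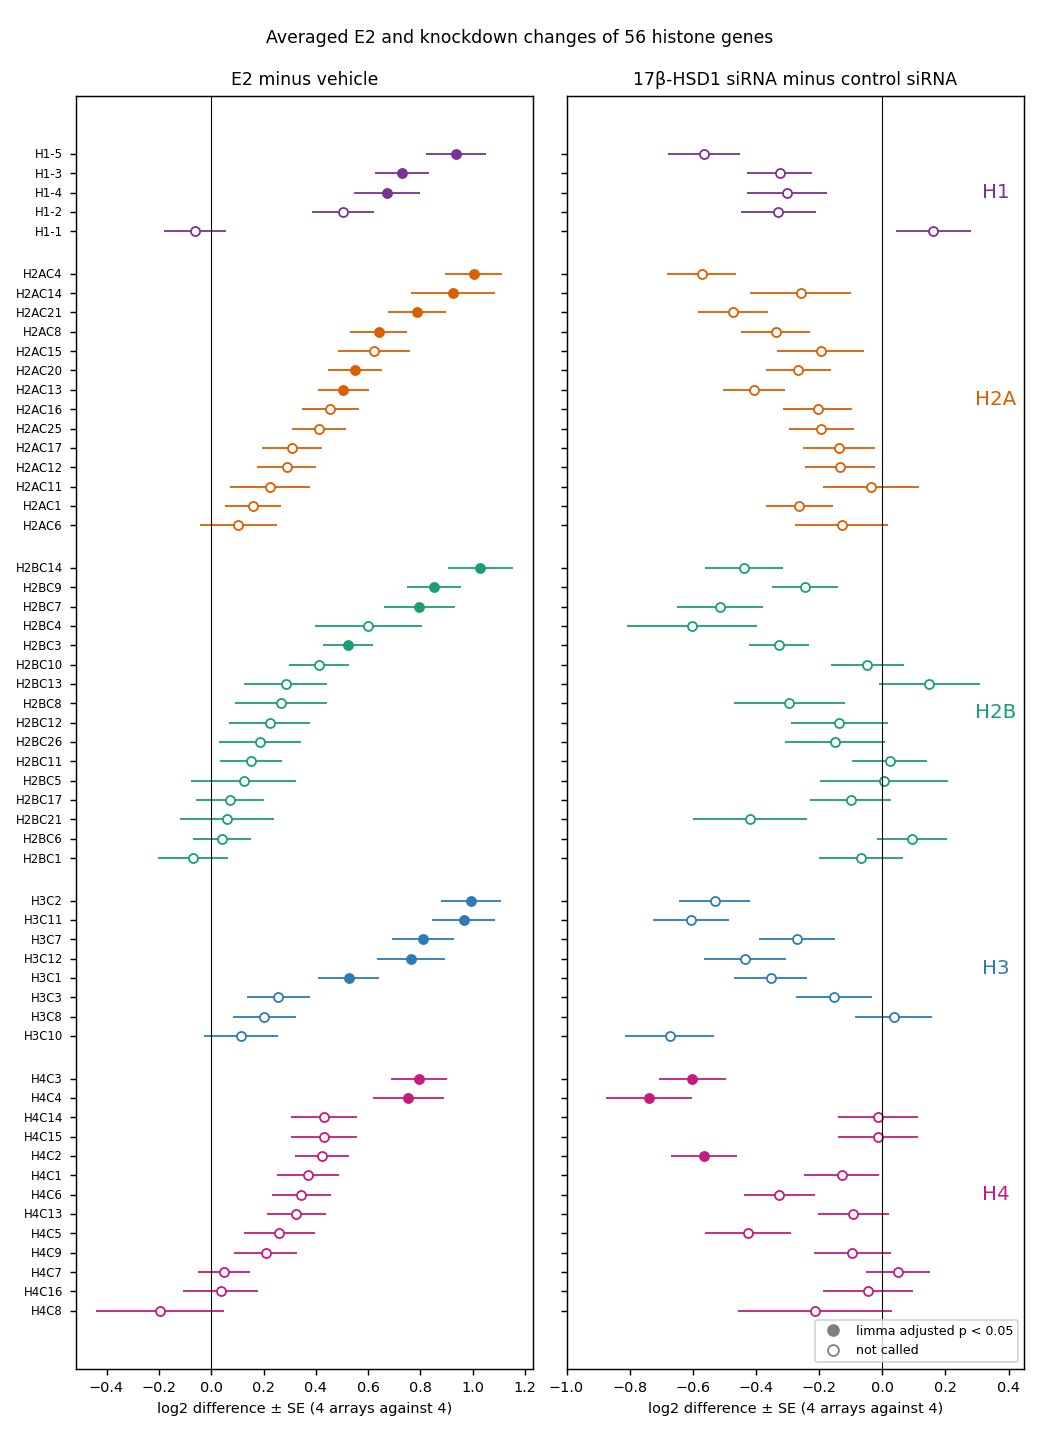
Averaged log2 difference ± SE of each of the 56 histone genes, E2 minus vehicle on the left and 17β-HSD1 siRNA minus control siRNA on the right, ordered within class by the E2 change; filled points passed a limma adjusted p of 0.05. The E2 changes run from -0.20 for H4C8 to 1.03 for H2BC14, with 20 filled points, and the knockdown changes from -0.74 for H4C4 to 0.16 for H1-1, with 3 filled points.

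The promoters of genes at both ends of the response show what the classes share in sequence. Each sequence below covers the 160 bases before the RefSeq start in GRCh38.p14, read 5′ to 3′ on the gene's strand. Capitals mark 4 motifs, each searched on both strands. The octamer known to bind OCT1 was searched as ATTTGCAT. The TATA box, bound by the TATA-binding protein, was searched as TATAAA. A box bound by the factor NF-Y was searched as CCAAT. The AC box of H1 genes was searched as AAACACA. H2BC14 and H2BC21 are the H2B genes with a large and a small E2 change, at chr6:27814862-27815021 (plus strand) and chr1:149886683-149886842 (minus strand). H2AC4, H1-5 and H3C2 had the highest change of their classes, at chr6:26033619-26033778, chr6:27867589-27867748 and chr6:26032100-26032259 (all on the minus strand). H4C4 and H4C8 are a called and the lowest H4 gene, at chr6:26189113-26189272 and chr6:26285535-26285694 (minus strand).
H2BC14: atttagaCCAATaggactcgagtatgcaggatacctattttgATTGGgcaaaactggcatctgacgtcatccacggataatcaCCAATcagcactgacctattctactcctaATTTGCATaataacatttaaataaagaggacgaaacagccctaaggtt
H2BC21: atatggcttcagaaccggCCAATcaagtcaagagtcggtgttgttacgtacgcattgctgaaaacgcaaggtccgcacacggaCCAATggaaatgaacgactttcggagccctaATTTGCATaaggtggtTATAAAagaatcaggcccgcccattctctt
H2AC4: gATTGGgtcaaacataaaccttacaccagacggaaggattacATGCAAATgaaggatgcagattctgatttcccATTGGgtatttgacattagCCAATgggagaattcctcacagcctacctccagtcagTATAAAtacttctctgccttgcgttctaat
H1-5: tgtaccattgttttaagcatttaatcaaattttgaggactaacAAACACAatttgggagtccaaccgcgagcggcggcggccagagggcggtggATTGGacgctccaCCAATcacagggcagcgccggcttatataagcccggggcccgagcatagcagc
H3C2: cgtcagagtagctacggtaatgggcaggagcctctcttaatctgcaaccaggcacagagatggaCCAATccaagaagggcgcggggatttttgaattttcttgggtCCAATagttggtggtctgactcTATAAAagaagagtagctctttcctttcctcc
H4C4: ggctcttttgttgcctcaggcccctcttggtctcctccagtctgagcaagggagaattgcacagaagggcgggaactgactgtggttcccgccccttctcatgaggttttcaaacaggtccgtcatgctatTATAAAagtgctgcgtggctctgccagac
H4C8: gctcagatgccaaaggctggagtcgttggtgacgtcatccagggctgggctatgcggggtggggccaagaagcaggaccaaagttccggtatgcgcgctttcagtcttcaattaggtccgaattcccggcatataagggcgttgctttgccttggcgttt

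H2BC14 and H2BC21 both hold the octamer and paired CCAAT letters, although the E2 changes of their single-gene probe sets were 1.03 and 0.06. They differ in TATAAA, which stands in the printed stretch of H2BC21 but not in that of H2BC14. In the full windows of 250 bases before to 50 after the start, 51 of the 56 genes had a RefSeq sequence. The octamer was present in 23 of them (45.1%), against 1.8% of 27305 promoters. It stood in 10 of 13 H2A and 13 of 16 H2B windows and in no H1, H3 or H4 window. Because the paired H2A and H2B genes share the stretch between them, these windows overlap and are not separate counts. CCAAT was found in 43 of the 51 (84.3%, against 35.7%), including all H1, H2A, H2B and H3 windows but 3 of 11 of H4. TATAAA was found in 34 (66.7%, against 12%), on either strand and anywhere in the window. The AC box stood in all 5 H1 windows and in 1 other, that of H2AC20, against 5.76% of all promoters. Of the 17 genes with a window that were called with E2, 9 held the octamer, 14 TATAAA, 16 CCAAT and 4 the AC box. Of the 34 not called, 14 held the octamer, 20 TATAAA, 27 CCAAT and 2 the AC box. The classes differ both in motifs and in calls, so class and call cannot be told apart in these counts. These matches describe the letters only.

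Among the linker histones, which compact nucleosome arrays, H1-5, H1-3 and H1-4 rose. H1-5 read 9.90 and 9.81 on the control-vehicle arrays, 10.72 and 10.51 with control-E2, 9.24 and 8.99 with knockdown-vehicle, and 10.34 and 10.10 with knockdown-E2. All 4 E2 arrays were above all 4 vehicle arrays, and the averaged rise was 0.94 ± 0.11 (1.91-fold, adjusted p = 0.00273). H1-3 rose by 0.73 ± 0.10 (adjusted p = 0.00509) and H1-4 by 0.67 ± 0.13 (adjusted p = 0.0231), again without overlap. The change of H1-2 was 0.51 ± 0.12 (adjusted p = 0.0708), and it passed with the replicate number as a block (adjusted p = 0.0263). H1-1 stood apart from the other 4 at -0.06 ± 0.12, with signals between 5.62 and 6.14 on the 8 arrays.

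H2A forms a dimer with H2B at the outer faces of the nucleosome. H2AC4 read 8.45 and 8.69 on the control-vehicle arrays, 9.49 and 9.54 with control-E2, 8.06 and 7.82 with knockdown-vehicle, and 9.05 and 8.96 with knockdown-E2. The highest vehicle array was at 8.69 and the lowest E2 array at 8.96, and the averaged rise was 1.00 ± 0.11 (2.01-fold, adjusted p = 0.00221). H2AC14 rose by 0.92 ± 0.16 (adjusted p = 0.0145). Its signals were 4.33 to 4.92 with vehicle and 4.99 to 5.86 with E2, all below that of the median gene (7.66). The call held under 12 of 16 alternative settings. It was lost without either knockdown-vehicle array and without the second knockdown-E2 array.

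The other called H2A genes also had 4 E2 arrays above 4 vehicle arrays. H2AC21 rose by 0.79 ± 0.11, H2AC8 by 0.64 ± 0.11, H2AC20 by 0.55 ± 0.10 and H2AC13 by 0.51 ± 0.10 (adjusted p from 0.00507 to 0.0268). H2AC15 (0.62 ± 0.14) and H2AC16 (0.46 ± 0.11) did not pass, at adjusted p = 0.0534 and 0.0755, but did with the replicate block (adjusted p = 0.0223 and 0.0449). H2AC6 had the lowest change of the class, 0.10 ± 0.15.

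The H2B class held both the highest change of the 56 genes and many small ones. H2BC14 read 8.95 and 9.35 on the control-vehicle arrays, 9.83 and 9.99 with control-E2, 8.48 and 8.41 with knockdown-vehicle, and 9.88 and 9.59 with knockdown-E2. Again no vehicle array reached the E2 arrays, and the rise was 1.03 ± 0.12 (2.04-fold, adjusted p = 0.00253). H2BC9 rose by 0.85 ± 0.10 (adjusted p = 0.00273), H2BC7 by 0.80 ± 0.14 (adjusted p = 0.0138) and H2BC3 by 0.52 ± 0.10 (adjusted p = 0.0207).

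The 12 H2B genes that were not called ranged from -0.07 for H2BC1, which with H2AC1 is known as a testis-specific gene, to 0.60 for H2BC4. H2BC21 read 10.11 and 10.39 on the control-vehicle arrays, 9.76 and 10.34 with control-E2, 9.18 and 9.97 with knockdown-vehicle, and 9.84 and 9.95 with knockdown-E2. Its replicate 2 array was the higher in all 4 groups, and its E2 change was 0.06 ± 0.18. Probe sets that list H2BC21 with other genes gave larger changes. The one with H2BC19P and H2BC20P gave 0.38 ± 0.11 (limma adjusted p = 0.158), with all 4 E2 arrays above all 4 vehicle arrays. The one with H2BC18 and H2BP1 gave 0.40 ± 0.16.

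Most H2A genes sit head to head with an H2B gene and share the stretch between the start sites. The members formed 9 such pairs, with RefSeq starts 215 to 248 bp apart in GRCh38.p14. Only in H2AC14 and H2BC14 were both partners called. The changes of both partners were positive in every pair except H2AC1 with H2BC1 (0.16 and -0.07). In H2AC8, H2AC20 and H2AC13 the H2A gene was called while the partner was not (H2BC8 0.27 ± 0.18, H2BC21 0.06 ± 0.18, H2BC13 0.28 ± 0.16). The H2A change was the larger in 7 of the 9 pairs. The exceptions were H2AC14 with H2BC14 and H2AC6 with H2BC4 (0.10 ± 0.15 and 0.60 ± 0.21). The differences within pairs were not tested. H2BC9 and H3C7, which start 979 bp apart in opposite directions, both rose, by 0.85 ± 0.10 and 0.81 ± 0.12.

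**Figure D2:**
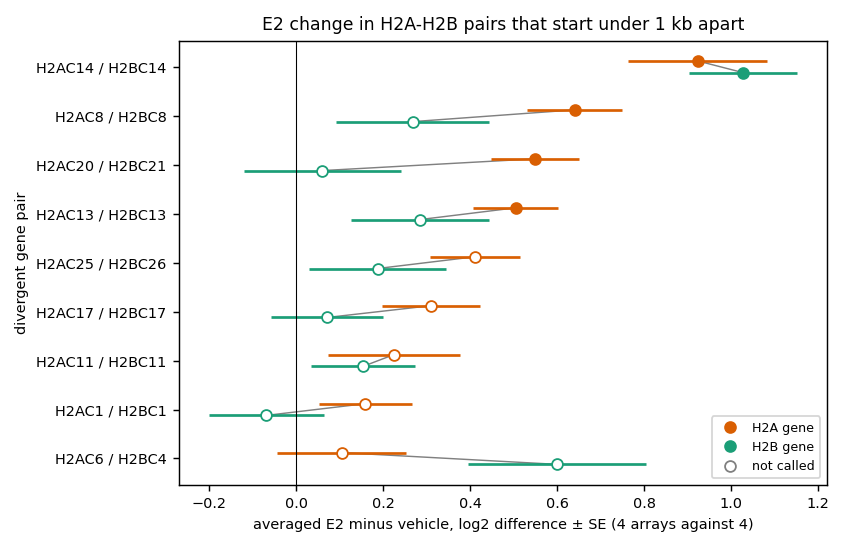
Averaged E2 change (log2 difference ± SE, 4 arrays against 4) of the H2A gene (orange) and the H2B gene (green) in each of 9 divergent pairs; filled points were called and a grey line joins partners. The H2A gene lies to the right of its H2B partner in 7 pairs, and both points are filled only for H2AC14 and H2BC14.

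H3 and H4 form the tetramer at the core of the nucleosome, and all 8 H3 members encode the same protein, H3.1. H3C2 read 9.13 and 9.42 on the control-vehicle arrays, 10.35 and 10.09 with control-E2, 8.73 and 8.65 with knockdown-vehicle, and 9.76 and 9.72 with knockdown-E2. The lowest E2 array was above the highest vehicle array, and the rise was 0.99 ± 0.11 (1.99-fold, adjusted p = 0.00226). H3C11 rose by 0.96 ± 0.12 (adjusted p = 0.00293) and H3C7 by 0.81 ± 0.12 (adjusted p = 0.00683), both without overlap. H3C12 rose by 0.76 ± 0.13 (adjusted p = 0.0136) and H3C1 by 0.53 ± 0.12 (adjusted p = 0.0499), with overlapping arrays. Neither call held without the first knockdown-vehicle array. H3C10 had the lowest change, 0.11 ± 0.14.

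The H4 class showed few calls although 12 of its 13 genes had a positive change. H4C3 read 10.89 and 10.81 on the control-vehicle arrays, 11.61 and 11.34 with control-E2, 10.05 and 10.11 with knockdown-vehicle, and 11.10 and 10.99 with knockdown-E2. It rose by 0.80 ± 0.11 (1.73-fold, adjusted p = 0.00392), without overlap. H4C4 read 8.29 and 8.52, 9.00 and 8.88, 7.16 and 7.73, and 8.45 and 8.40 in the same order of groups. Both E2 groups exceeded their own vehicle group, but the knockdown-E2 arrays overlapped the control-vehicle arrays. Its rise was 0.75 ± 0.14 (adjusted p = 0.0173). H4C8 had the lowest E2 change of all members, -0.20 ± 0.24. It read 10.51 and 11.15, 9.91 and 10.90, 9.92 and 10.84, and 10.34 and 10.50 in that order, so that replicate 2 was the higher in every group.

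**Figure D3:**
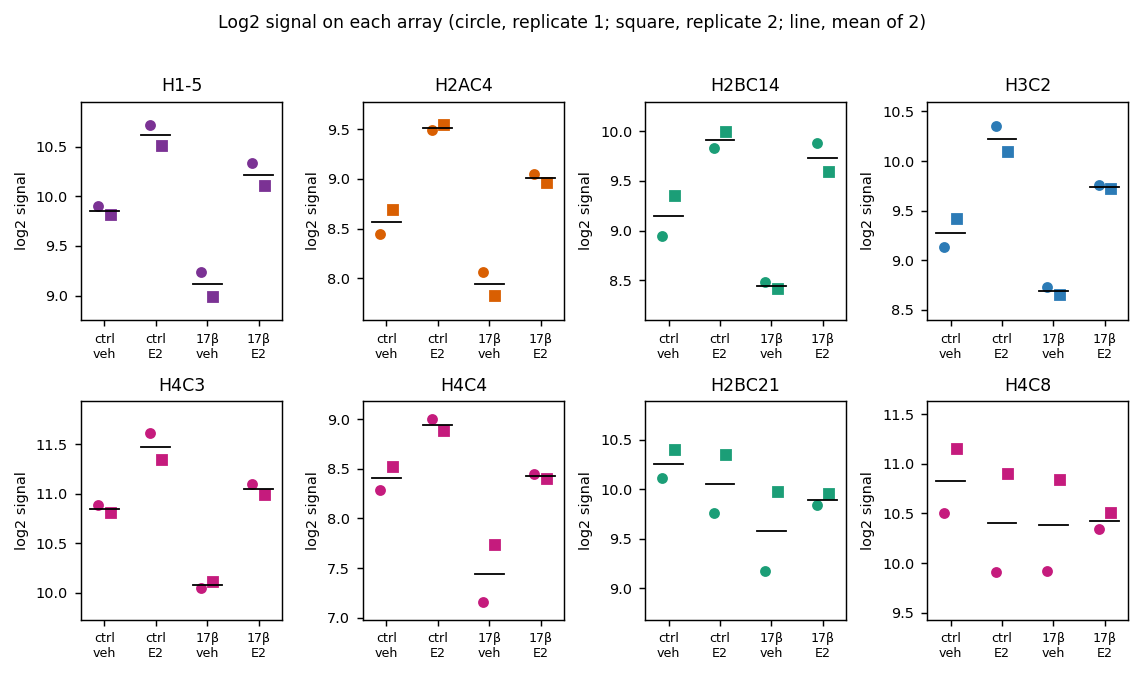
Log2 signal of 8 histone genes on each array by group (ctrl, control siRNA; 17β, 17β-HSD1 siRNA; veh, vehicle), with replicate 1 as a circle, replicate 2 as a square and the mean of 2 as a line; every panel spans the same range. H1-5, H2AC4, H2BC14, H3C2, H4C3 and H4C4 are higher with E2 under each siRNA, while in H2BC21 and H4C8 the squares lie above the circles in every group.

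Several members are near-identical copies, and probes designed for a copy may also bind RNA of another. RefSeq cross-lists 32 members in 5 groups as genes of the same protein. The probe sets within a group gave differing changes. Among the 12 H4 copies the E2 change ran from -0.20 (H4C8) to 0.80 (H4C3), and among the 8 H3.1 copies from 0.11 (H3C10) to 0.99 (H3C2). Among 5 H2B copies it ran from 0.04 (H2BC6) to 0.80 (H2BC7), and among 5 H2A copies from 0.22 (H2AC11) to 0.62 (H2AC15). H4C14 and H4C15 carried identical values (within 1e-05) on every array and cannot be told apart. How far reads of the copies mix was not tested. With each group of copies averaged, the pair H2AC4 and H2AC8 (0.82 ± 0.11, adjusted p = 0.00339) and the H3.1 group (0.58 ± 0.11, adjusted p = 0.0222) passed. The H4 group (0.35 ± 0.11, adjusted p = 0.214), the larger H2A group (0.42 ± 0.10, adjusted p = 0.0774) and the H2B group (0.42 ± 0.11, adjusted p = 0.126) did not.

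A further 20 probe sets listed several genes with at least 1 histone gene among them, and 3 pairs of these carried identical values. Thus 17 had values of their own, and counts over the 20 hold each identical pair as separate sets. With E2, 4 of the 20 were called higher and 0 lower, against 1.4% and 0.244% of all genes. The change was positive for 18, with a median of 0.43 and a range from -0.28 (H3C11 with H3C6) to 0.70. The set shared by H3C4 and H2AC7 rose with E2 by 0.70 ± 0.11 (adjusted p = 0.0106). The set shared by H2BC5, H2BC12, H2BC17 and H2BC12L rose by 0.55 ± 0.11 (adjusted p = 0.0282). By contrast the single-gene sets of H2BC5, H2BC12 and H2BC17 gave 0.12 ± 0.20, 0.22 ± 0.15 and 0.07 ± 0.13. The sets for H2BC18 gave differing values. The highest, with H2BP1, rose by 0.53 ± 0.11 (adjusted p = 0.0309), while another with H2BP1 gave 0.26 ± 0.21, the one with H2BP1 and H2BC21 0.40 ± 0.16 and the one with FCGR1BP -0.14 ± 0.13. Of 4 sets for H3C13, H3C14 and H3C15, 1 rose by 0.61 ± 0.13 (adjusted p = 0.0495) and the others were at 0.49 to 0.50. The sets that list H4C14 with H4C15 gave 0.02 ± 0.21, against 0.43 ± 0.13 for the sets that list either gene alone.

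Within each siRNA the E2 comparison rests on 2 arrays against 2, and these contrasts share arrays with the averaged one. After control siRNA 0 of 56 genes were called (0.0706% of all genes were called higher). At an unadjusted limma p below 0.05 there were 28, against 603 of 18417 genes, and both E2 arrays lay above both vehicle arrays in 42 of 56 (16.7% of all genes). With the replicate number as a block, 6 genes passed, H1-3, H1-5, H2AC4, H2AC14, H3C2 and H3C11 (0.456% of all genes). Without either knockdown-vehicle array, which this contrast uses only for the shared spread, 1 gene passed. The median change of the 56 was 0.39.

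After 17β-HSD1 siRNA 8 genes were called higher with E2 and 0 lower (0.282% of all genes were called higher). They were H1-5, H2AC4, H2AC21, H2BC9, H2BC14, H3C2, H3C11 and H4C3, and H2BC7, H3C7 and H4C4 joined them with the block. The share of all genes called with the block was not counted for this contrast. H2BC14 had the largest rise, 1.29 ± 0.18 (adjusted p = 0.0253). The median change was 0.41, and 38 of 56 genes did not overlap (12.6% of all genes). Leaving out any 1 of the 4 arrays compared, the first knockdown-vehicle array among them, left 0 called.

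The difference between both E2 responses, tested as an interaction, was called for 0 of 56 genes (0% of all genes), and 0 had an unadjusted limma p below 0.05. Of all 18417 genes, 45 had such a p with a positive difference and 64 with a negative one. For H2BC14 the E2 change was 0.77 ± 0.17 after control siRNA and 1.29 ± 0.18 after 17β-HSD1 siRNA, a difference of 0.52 ± 0.25 (adjusted p = 1). For H3C2 the values were 0.94 ± 0.16 and 1.05 ± 0.16. The greater number of calls after knockdown is therefore not a shown difference in response.

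The knockdown lowered few histone genes past the test. Averaged over both media, 3 of 56 were called lower, all of them H4 genes, and 0 higher (0.239% of all genes were called lower and 0.206% higher). The change was negative for 49 of 56 genes, with a median of -0.25 against 0.01 over all genes. At an unadjusted p below 0.05 there were 27 lower, against 1036 of 18417 genes. Class medians were -0.33 for H1, -0.23 for H2A, -0.14 for H2B, -0.39 for H3 and -0.13 for H4. The H2B median ran from -0.06 without the second control-E2 array to -0.24 without the first control-E2 or the second knockdown-vehicle array, and was -0.23 without the second knockdown-E2 array. The H4 median was -0.21 without the first knockdown-E2 array.

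H4C4, with the array values given above, fell by 0.74 ± 0.14 (0.599-fold, adjusted p = 0.0442). H4C3 fell by 0.60 ± 0.11 (0.659-fold, adjusted p = 0.0371). H4C2 read 9.15 and 9.18 on the control-vehicle arrays, 9.59 and 9.36 with control-E2, 8.45 and 8.53 with knockdown-vehicle, and 9.09 and 8.96 with knockdown-E2. In this gene all 4 knockdown arrays lay below all 4 control arrays, and it fell by 0.56 ± 0.10 (0.676-fold, adjusted p = 0.0465). For H4C3 and H4C4 the knockdown arrays were lower within each medium but overlapped across media. The other 10 H4 genes ranged from -0.43 (H4C5) to 0.05 (H4C7), a divergent H4 gene. These 3 calls were not stable to leaving out arrays: 0 remained without either control-vehicle array, the first control-E2 array, the first knockdown-vehicle array or either knockdown-E2 array. There was 1 without the second control-E2 array and 6 without the second knockdown-vehicle array.

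With the replicate block 8 genes were called lower (0.668% of all genes), since H1-5, H2AC4, H3C2, H3C10 and H3C11 joined. H3C10 read 8.52 and 8.94 on the control-vehicle arrays, 8.55 and 8.88 with control-E2, 7.71 and 8.14 with knockdown-vehicle, and 8.18 and 8.15 with knockdown-E2. It was lower on every knockdown array, with little difference between media. Its averaged knockdown change was -0.67 ± 0.14, at an adjusted p of 0.077 without the block and 0.0145 with it. The probe set that lists H3C10 together with H2AC13 fell by 0.70 ± 0.13 (adjusted p = 0.0392). Only H3C10 and H4C2 had all knockdown arrays below all control arrays, 2 of 56 genes, against 2.17% of all genes. In the other classes the most negative changes were -0.57 ± 0.11 (H2AC4, adjusted p = 0.0539), -0.57 ± 0.11 (H1-5, adjusted p = 0.0655), -0.61 ± 0.12 (H3C11, adjusted p = 0.0594), -0.60 ± 0.21 (H2BC4, adjusted p = 0.322) and -0.52 ± 0.14 (H2BC7, adjusted p = 0.163).

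Within each medium no histone gene was called for the knockdown (0% of all genes in both). In vehicle 23 genes had an unadjusted limma p below 0.05 in the lower direction, against 668 of 18417 genes. The lowest adjusted p was 0.203, and both knockdown arrays were below both control arrays in 31 of 56 (12% of all genes). With E2 13 genes had such an unadjusted p, against 391 of 18417 genes. The lowest adjusted p was 0.64, and both knockdown arrays were the lower in 25 of 56 (19.9% of all genes). The median change was -0.30 in vehicle and -0.15 with E2.

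Seen array by array, the E2 arrays of each siRNA stood above its vehicle arrays. The median over the 56 genes of the log2 signal, taken relative to each gene's mean, was -0.13 and -0.03 on the control-vehicle arrays and 0.30 and 0.34 on the control-E2 arrays. It was -0.43 and -0.34 on the knockdown-vehicle arrays and 0.14 and 0.08 on the knockdown-E2 arrays. The arrays of different groups did not overlap in this median, with knockdown-vehicle lowest and control-E2 highest. The H2B class departed from this on the first control-E2 array, whose median was 0.03 against 0.41 on the second. The H4 class also departed from it, since the first knockdown-E2 array (0.23) lay between the control-E2 arrays (0.25 and 0.21) and the second (0.01) lay below the first control-vehicle array (0.03).

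**Figure D4:**
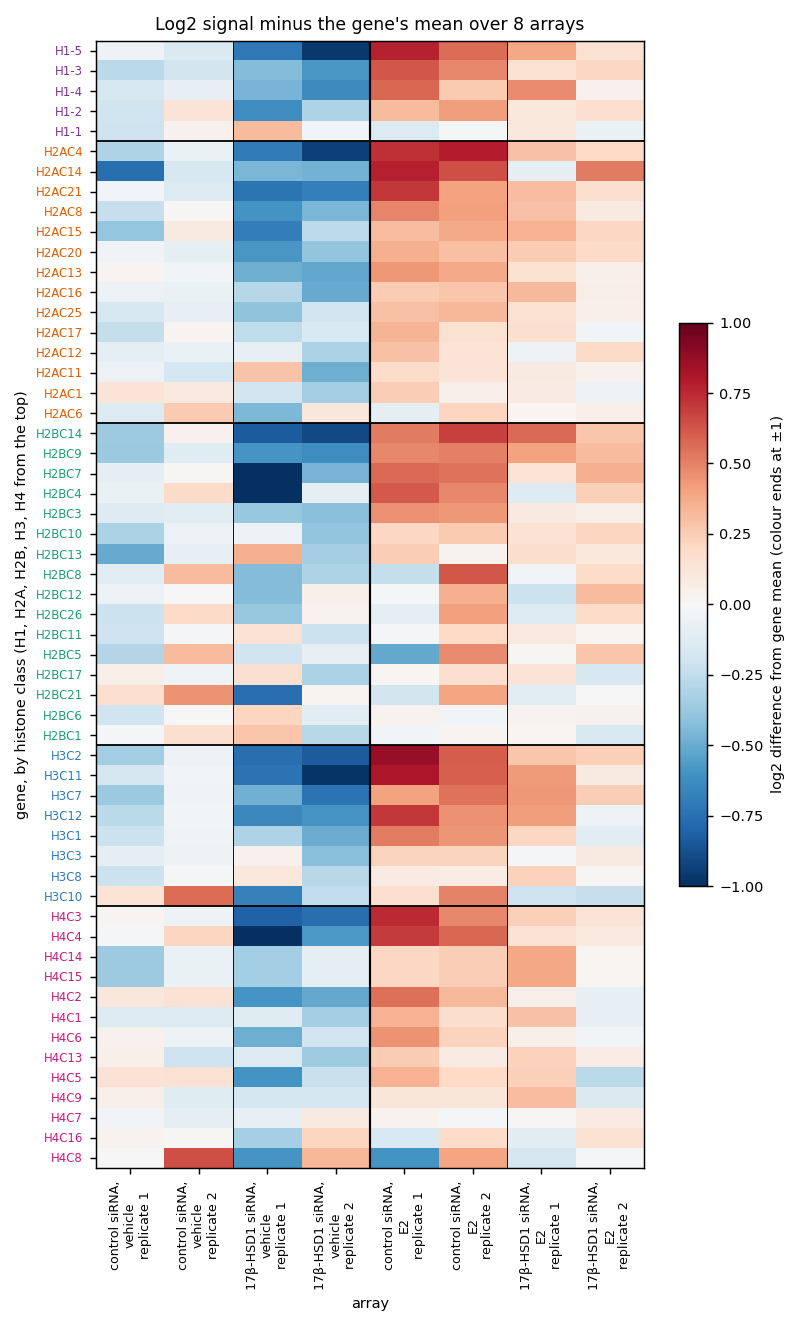
Log2 signal minus the gene's mean over 8 arrays for the 56 histone genes (rows, by class and E2 change) on the 4 vehicle arrays (left of the thick line) and the 4 E2 arrays (right); red is above and blue below the gene's mean, and the colours end at ±1. The upper rows of each class turn from blue on vehicle to red on E2, whereas the lower rows of H2B and H4 show no such split.

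Most genes that switch on histone transcription or process the mRNA were not called, as holds for all genes, of which 1.4% were called higher with E2. Of 36 listed, 34 were measured, and 2 were called higher with E2, the cyclin CCNE2 (0.79 ± 0.15, adjusted p = 0.0265) and the CDK2-activating phosphatase CDC25A (0.53 ± 0.10, adjusted p = 0.0231). The change was positive for 28 of the 34, and the list's median was 0.14. The stem-loop binding protein SLBP changed by 0.29 ± 0.10 (adjusted p = 0.276) and the transcriptional activator NPAT by 0.17 ± 0.11 (adjusted p = 0.837). No gene of this list was called for the knockdown by limma, with a median of -0.14 and 7 of 34 positive.

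Factors that deposit new histones at the fork gave 2 of 18 called higher with E2, the helicase subunit and histone binder MCM2 (0.61 ± 0.11, adjusted p = 0.0204) and the H3-H4 chaperone ASF1B (0.59 ± 0.12, adjusted p = 0.0377). Among all genes 1.4% were called higher. The E2 change was positive for 16 of the 18 factors. Their median changes were 0.33 with E2 and -0.21 with the knockdown, and 0 were called for the knockdown. Among DNA replication genes read as a reference, 16 of 21 measured were called higher with E2, with a median of 0.65. They included TYMS, which makes thymidylate (1.06 ± 0.13), and the origin licensing factor CDC6 (0.97 ± 0.12). With the knockdown 2 of the 21 were called lower, CDC6 (-0.75 ± 0.12, adjusted p = 0.0222) and TYMS (-0.73 ± 0.13, adjusted p = 0.0465), and the median was -0.43. The histone genes thus had 20 of 56 called with E2 beside 16 of 21 for this reference, and the difference between lists was not tested.

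**Figure D5:**
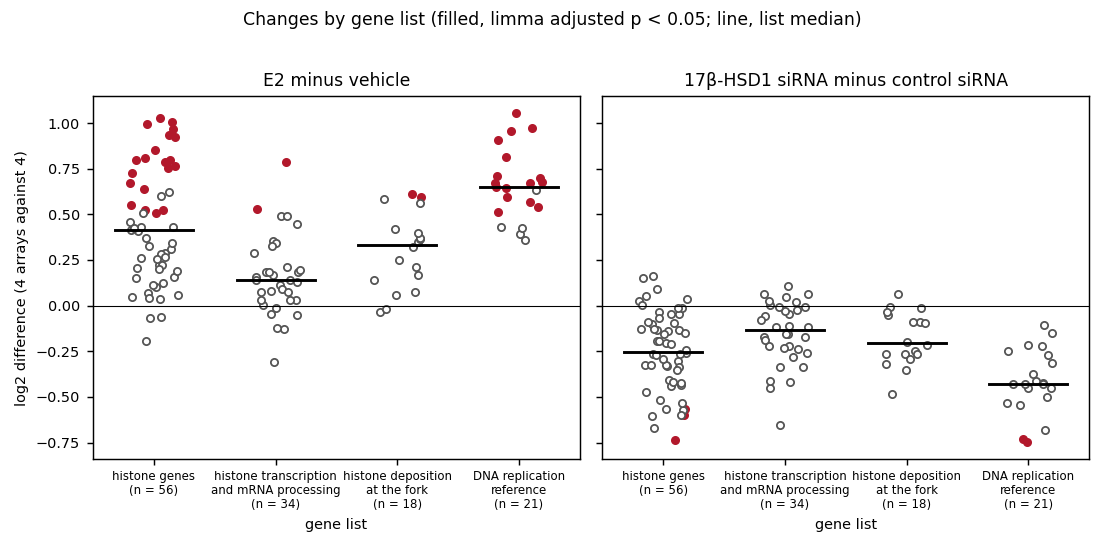
Averaged log2 changes of the 56 histone genes and of 3 gene lists, with E2 on the left and with 17β-HSD1 siRNA on the right; filled points were called, and the line is the list median, with points spread sideways only for visibility. The medians with E2 are 0.41 for the histone genes, 0.14 for transcription and mRNA processing, 0.33 for deposition and 0.65 for DNA replication.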

How the data were processed

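Total RNA was labelled and hybridised to Affymetrix Human Gene 1.0 ST arrays, per the labels' protocols. Values in the deposited table of 33297 probe sets run from 2.42 to 15.16, from which a log2 scale was inferred. How the authors summarised and normalized them is not given in the sources used here. Array medians lay between 7.25 and 7.37, and values were tested as deposited.

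The platform annotation, with symbols updated through RefSeq, named the probe sets. Of them, 19460 had 1 symbol, 1754 several and 12083 none. The highest mean over the 8 arrays chose a gene's probe set. The members and lists were chosen with earlier results of these data known.

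The 21214 probe sets with a symbol were fitted with limma 3.58.1 (R 4.3.3), using lmFit on the 8 arrays with a coefficient for each group and then eBayes, with 4 residual degrees of freedom. P-values were adjusted by Benjamini-Hochberg over all 21214, and a call is an adjusted p below 0.05. Averaged contrasts set 4 arrays against 4, changes are log2 differences ± SE, and folds are 2 to that power. The number of arrays limits the precision. The code was tested on simulated data.

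Named are all called histone genes, in each class the 3 highest and the lowest by E2 change and the 2 lowest by knockdown change, copies, and list genes that passed or had the smallest p. H2BC1 with H2AC1, H2BC21, H1-2, H2AC15, H2AC16 and the partners in gene pairs were named after their values were seen, as were SLBP, NPAT, H4C5 and H4C7.

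The replicate number was assumed to mark the culture experiment. Sample titles give the number but do not say that same-numbered arrays share an experiment. Deviations of same-numbered arrays from their group means correlated at 0.44, 0.31, 0.31 and 0.42 for 4 pairs of groups. For control-vehicle they correlated at 0.01 with knockdown-E2 and -0.20 with knockdown-vehicle. Promoters came from RefSeq (GRCh38.p14), and a genome was not used here.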

Additional observations from a re-analysis of the deposited data

How the results depend on the processing

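The median E2 change (0.41) and the median knockdown change (-0.25) of the 56 genes kept their direction under every alternative. The replicate block, the additive model, the trended robust spread and a changed set of tested probe sets leave each gene's estimate unchanged. For these the result was fixed in advance. Leaving out 1 array moved the medians between 0.351 and 0.446 and between -0.306 and -0.183. Counts of calls moved more. The 20 genes raised by E2 became 10 when adjusted over all probe sets of the table and 11 with copies of the same protein averaged, where fewer units were tested, and 12 to 21 when 1 array was left out. The 3 genes lowered by the knockdown became 0 over all probe sets, after a further quantile normalization, with array medians subtracted and with copies averaged, 6 in an additive model, 8 with the replicate block, and 0 to 6 without 1 array. The 0 genes raised by E2 after control siRNA became 2 with a trended robust spread, 6 with the replicate block and 0 to 1 without 1 array. The 8 genes raised after 17β-HSD1 siRNA became 0 over all probe sets, 2 after quantile normalization, 5 with copies averaged and 0 to 9 without 1 array. Of the 20 genes raised by E2, 10 kept their call under each alternative run on the single gene, and of the 3 lowered by the knockdown, 0 did. Averaging copies gives a value for the group only, so this alternative was not run on the single genes H2AC4, H3C2, H3C7, H3C11 and H4C3 among those 10, and the H4 group that holds H4C3 did not pass it (adjusted p = 0.214). H3C1 was called under 6 of 15. Apart from the fewer arrays or genes tested, the cause was not tested. The knockdown within each medium and the interaction gave 0 calls under every alternative run. The replicate block changed no call of a histone gene other than those given. With the numbers of the control-vehicle arrays crossed, which was added after seeing the data, the knockdown in vehicle still gave 0 calls. Averaging a gene's probe sets was the same as the main setting, since each member has 1.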

Other observations

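In 8 of the 56 histone genes (14.3%) the replicate 2 arrays exceeded the replicate 1 arrays by over 0.3 on the log2 scale, averaged over the 4 groups, as in 5.08% of all genes. These were H4C8, H2AC6 and 6 H2B genes, H2BC4, H2BC5, H2BC8, H2BC12, H2BC21 and H2BC26, and the set was chosen after its values were seen. Of these 8, 0 were called with E2, with a median change of 0.15, whereas 20 of the other 48 were called, with a median of 0.43. The spread used by the test includes this gap, so fewer calls in the set were in part fixed by how it was chosen. RefSeq annotates a gene of over 1000 bp for 5 members, H2BC4, H2BC5, H2BC12, H2BC21 and H4C15. Of these 5, 0 were called with E2 or the knockdown, and their median E2 change was 0.22, against 0.41 for the other 51. All of them but H4C15 also belong to the set with the replicate gap, so this is not a separate observation. H4C15 has the same values as H4C14, a gene of 396 bp among the other 51, so its value cannot be tied to gene length.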
